A study of Mus musculus with 36 samples.

Results

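The genes described are enzymes and regulators tied to the stress-sensing transcription factor NRF2 in mouse liver after an overdose of acetaminophen. They are 8 genes chosen by symbol, with earlier results of these data known: Nqo1, Osgin1, Cbr1, Cbr3, Ephx1, G6pdx, Nfe2l2 and Keap1. A gene counted as measured when the platform annotation gave it a probe set of its own. That held for 7 of the 8, through 9 probe sets, among 18193 genes with such a probe set, and all 7 were among the 13981 genes tested. No probe set was listed under G6pdx alone, so its RNA is not analysed here. Nqo1, Osgin1, Cbr1, Cbr3 and Ephx1 had 1 probe set each, while Nfe2l2 and Keap1 had 2 each, and the brighter of each pair stood for the gene.

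The study gave mice of 4 inbred strains 300 mg/kg acetaminophen as a single intraperitoneal injection and took the liver before the dose (0 h) or 3 h or 6 h after it, with 3 mice in each of the 12 groups. The strains, by the names in the labels, were SJL, described in the study's design as resistant to liver injury, and SMJ, DBA and C57 (SmJ, DBA/2 and C57B6 in the design), described as sensitive. All mice, those at 0 h included, had been fasted overnight for >16 h, and no vehicle-injected group at 3 h or 6 h was part of the series. Hours since the dose, length of the fast and time of day therefore cannot be told apart. Age and sex are not in the labels. Each array held RNA of 1 mouse, so that the 36 arrays are 36 mice. The values are MAS5 signals, intensities on a linear scale in which each array's trimmed mean was set to the same number.

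NRF2, the product of Nfe2l2, is held in the cytoplasm and passed on for destruction by KEAP1, a cysteine-rich adaptor of a ubiquitin ligase. Electrophiles, such as the quinone imine that cytochrome P450 enzymes make from acetaminophen, modify KEAP1, and NRF2 then accumulates, pairs with a small MAF protein and binds antioxidant response elements near its target genes. Much of this control acts on the NRF2 protein, which arrays of RNA do not measure. NQO1 reduces quinones with a pair of electrons at a time, CBR1 and CBR3 reduce carbonyl compounds with NADPH, EPHX1 opens epoxides in microsomes, and the enzyme encoded by G6pdx starts the pentose phosphate pathway, a source of NADPH. OSGIN1 is known for restraining cell growth and for its induction by oxidative stress.

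Promoter windows are shown for the 4 genes whose RNA was higher 6 h after the dose. Each is the stretch of 250 bases before the transcription start in RefSeq's table for build GRCm38.p6, written 5′ to 3′ on the strand of the gene, with matches to an NRF2-type or AP-1 motif in capitals. Osgin1 is on chr8:119425882-119446257 and its window is chr8:119436897-119437146, plus strand, in front of a start that lies inside the gene's annotated span. Nfe2l2 is on chr2:75675513-75704663 (window chr2:75704664-75704913, minus strand), Nqo1 on chr8:107388225-107403205 (window chr8:107403206-107403455, minus strand) and Cbr3 on chr16:93683219-93690991 (window chr16:93682969-93683218, plus strand).
Osgin1: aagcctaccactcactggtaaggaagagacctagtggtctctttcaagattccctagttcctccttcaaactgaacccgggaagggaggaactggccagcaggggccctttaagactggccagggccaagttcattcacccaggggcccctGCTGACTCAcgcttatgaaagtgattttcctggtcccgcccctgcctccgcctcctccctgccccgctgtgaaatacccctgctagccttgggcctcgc
Nfe2l2: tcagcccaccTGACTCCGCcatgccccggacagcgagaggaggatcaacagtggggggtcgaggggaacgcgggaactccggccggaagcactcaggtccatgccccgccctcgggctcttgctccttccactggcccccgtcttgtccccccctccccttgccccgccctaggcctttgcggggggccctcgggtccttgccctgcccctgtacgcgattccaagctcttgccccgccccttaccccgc
Nqo1: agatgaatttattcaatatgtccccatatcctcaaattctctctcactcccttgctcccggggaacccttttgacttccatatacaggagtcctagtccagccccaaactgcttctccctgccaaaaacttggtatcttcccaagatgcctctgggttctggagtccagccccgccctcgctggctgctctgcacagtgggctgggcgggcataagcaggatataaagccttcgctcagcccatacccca
Cbr3: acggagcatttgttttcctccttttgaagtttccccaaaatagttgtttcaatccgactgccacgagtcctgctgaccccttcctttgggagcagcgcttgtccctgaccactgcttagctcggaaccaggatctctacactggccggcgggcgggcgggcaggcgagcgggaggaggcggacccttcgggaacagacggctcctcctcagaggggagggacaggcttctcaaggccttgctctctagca

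The search covered these 250 bases and the first 50 bases of the transcript, on both strands. The core of the antioxidant response element, TGACNNNGC, was in 2 of the 8 windows, against 12.4% of 32851 RefSeq windows of the same length. One match was TGACTCCGC at positions -240 to -232 of Nfe2l2, counted from the start with -1 as the base before it. The other was TGACTGAGC on the opposite strand at -57 to -49 of G6pdx, the gene without a probe set. The window of Osgin1 held the AP-1 element TGANTCA, present in 7.81% of all windows, at -97 to -91. It also held TGANTCAGC, an element of the NF-E2 type that was added to the search after the sequences had been read and that 1.19% of windows hold. That match, TGAGTCAGC on the opposite strand at -99 to -91, contains the AP-1 match. The short core bound by the aryl hydrocarbon receptor, GCGTG, was in 4 of the 8 windows (Osgin1, where it overlaps the AP-1 match, Keap1, Cbr1 and G6pdx), against 32.4% of all windows. No NRF2-type or AP-1 match was in the windows of Nqo1 and Cbr3, which says only that these letters are not in this stretch.

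Some facts of the whole series bear on what follows. Within groups, the correlation of log2 signals between mice, across genes, ranged from 0.914 to 0.963, and the lowest values were those of mouse SJL39 at 3 h with SJL40 and SJL42 (0.914 and 0.918). The ratio of the 3′ to the 5′ control probe set of beta-actin, a measure of RNA integrity, averaged 1.448 at 6 h against 1.706 at 0 h in SJL livers, 1.348 against 1.569 in SMJ livers and 1.435 against 1.768 in DBA livers. In C57 it averaged 1.673 at 6 h, against 1.642 at 0 h. Its part in the results was not tested. One mouse stood apart before the dose. SMJ56 had a Hmox1 signal of 5481 at 0 h, where SMJ57 and SMJ58 had 447 and 561, above the mean of 4062 in SMJ at 6 h, and its Atf3 (953, with 98.2 and 140.6 in the other two) and Srxn1 (1559.9, with 639.9 and 559.3) were also the highest of the 3. Hmox1, Atf3 and Srxn1 are stress-induced genes. Several results that include SMJ56 are given with and without it, and the others include it. By mean signal, Ephx1 and Osgin1 stood above 98.3% and 97.5% of the genes tested, Cbr1 above 93.2%, Nfe2l2 above 87.4%, Keap1 above 79.8%, Nqo1 above 47.0% and Cbr3 above 33.4%. Signals of different probe sets are not on a common scale, so these ranks do not order the amounts of RNA.

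Osgin1 was the member with the largest response, and it was higher as early as 3 h. Averaged over the 4 strains, its signal was 3.47-fold higher at 3 h than at 0 h (log2 change 1.79 ± 0.16 (SE), adjusted p = 8.44e-09) and 6.55-fold higher at 6 h (2.71 ± 0.16, adjusted p = 6.74e-13). Cbr3 and Nqo1 rose by 6 h, Cbr3 2.43-fold (1.28 ± 0.24, adjusted p = 0.000126) and Nqo1 1.70-fold (0.76 ± 0.16, adjusted p = 0.000367). Nfe2l2 was 1.18-fold higher at 6 h (0.24 ± 0.08, adjusted p = 0.0194). Cbr1, Ephx1 and Keap1 did not pass the test at either time. In all, 1 of the 7 measured genes passed at 3 h and 4 of 7 at 6 h, all upward, where 7.06% and 32.7% of all genes tested passed in either direction and 3.1% and 12.5% upward. The median log2 change of the 7 was 0.17 at 3 h and 0.24 at 6 h, against -0.03 and -0.05 over all genes tested. The change between 3 h and 6 h passed for Osgin1 (0.92 ± 0.16, adjusted p = 0.000183) and Cbr3 (0.75 ± 0.24, adjusted p = 0.0306), 2 of 7 genes, where 16.5% of all genes passed in either direction. Nfe2l2 did not pass with its brighter probe set (0.10), but its second, dimmer probe set gave 1.34 ± 0.20 (adjusted p = 5.94e-05) and the mean of both 0.72 (adjusted p = 8.01e-06). Without SMJ56 the log2 change of Osgin1 was 1.91 at 3 h and 2.82 at 6 h, and the counts were also 1 and 4 of 7, with 2 of 7 between 3 h and 6 h. The Cbr3 call was lost (adjusted p 0.0506 to 0.0607) without any 1 of mice SJL39, SJL45, SMJ95, SMJ101, SMJ102, DBA168 and C57231. The p values are two-sided, from limma with Benjamini-Hochberg adjustment over all genes tested, and a gene is called changed where the adjusted p is under 0.05.

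**Figure D1:**
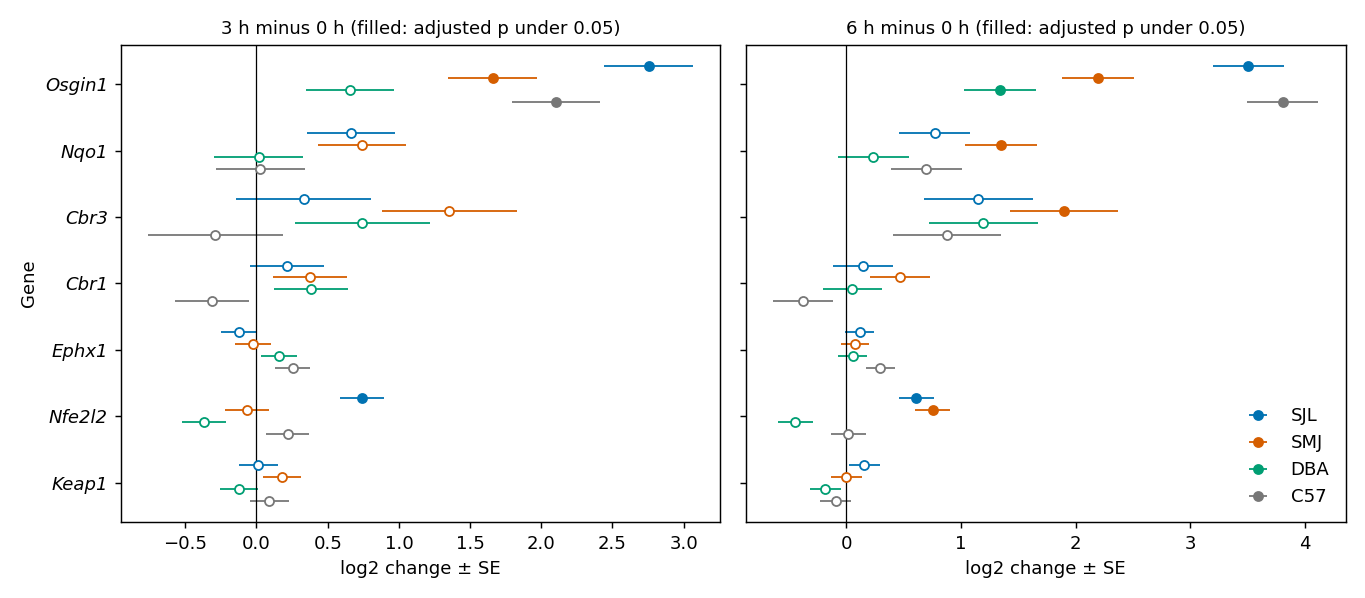
Log2 change of each measured gene (rows) in each strain (colours), 3 h minus 0 h on the left and 6 h minus 0 h on the right; points are estimates from 3 mice per group, bars are the standard error, and filled points passed the adjusted test. Osgin1 lies furthest to the right in each strain at 6 h, from 1.34 in DBA to 3.81 in C57, while Keap1 lies between -0.18 and 0.16.

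In SJL livers the Osgin1 signals were 698, 646 and 841 at 0 h, then 3045, 5321 and 7248 at 3 h, and 8949.6, 8232 and 7599 at 6 h. C57 livers began lower, with 582, 361 and 401 at 0 h, and had 1958, 1756 and 1967 at 3 h and 7232, 6744 and 4807 at 6 h. In both strains every mouse after the dose was above every mouse before it, and the 3 groups of each strain did not overlap. SMJ livers had 2909.7, 936 and 1400.0 at 0 h, with 4899.7, 5471 and 4498 at 3 h and 6179, 8164 and 7281 at 6 h. The 3 groups of SMJ did not overlap either. DBA livers had 1307, 2604 and 1501 at 0 h, with 2738, 2357 and 3116 at 3 h and 4276, 5269 and 3703 at 6 h. DBA was the strain whose 3 h and 0 h mice overlapped, because mouse DBA114 reached 2604 before the dose. All 3 mice at 6 h lay above all 3 at 0 h in each of the 4 strains, as was so for 1.83% of the genes tested, and all 3 at 3 h did so in 3 strains, as was so in at least 3 strains for 1.39%.

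Tested within strains, Osgin1 was 6.75-fold higher at 3 h than at 0 h in SJL (log2 2.75 ± 0.31, adjusted p = 1.82e-06), 4.29-fold in C57 (2.10 ± 0.31, adjusted p = 0.000843) and 3.16-fold in SMJ (1.66 ± 0.31, adjusted p = 0.014). In DBA the log2 difference was 0.66 ± 0.31 (adjusted p = 0.451). The SMJ call at 3 h was lost without mouse SMJ57 (1.29, adjusted p = 0.237), SMJ58 (1.58, 0.144), SMJ95 (1.66, 0.0523) or SMJ96 (1.59, 0.0832), and without SMJ56 the change was 2.11 (adjusted p = 0.000171). By 6 h Osgin1 was higher in each strain, 14.0-fold in C57 (3.81 ± 0.31, adjusted p = 4.85e-09), 11.3-fold in SJL (3.51 ± 0.31, adjusted p = 2.64e-08), 4.58-fold in SMJ (2.19 ± 0.31, adjusted p = 1.42e-05) and 2.53-fold in DBA (1.34 ± 0.31, adjusted p = 0.00465). With any 1 mouse left out, the SMJ log2 change at 6 h ran from 1.83 to 2.64. The means at 6 h were 8260.1 ± 676 in SJL, 7208 ± 995 in SMJ, 6261 ± 1283 in C57 and 4416 ± 793 in DBA (SD, n = 3 each). Between 3 h and 6 h the rise passed in C57 (1.70 ± 0.31, adjusted p = 0.00121), 1 of 7 genes where 4.46% of all genes passed, and the differences in SJL (0.75), DBA (0.68) and SMJ (0.53) did not pass.

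**Figure D2:**
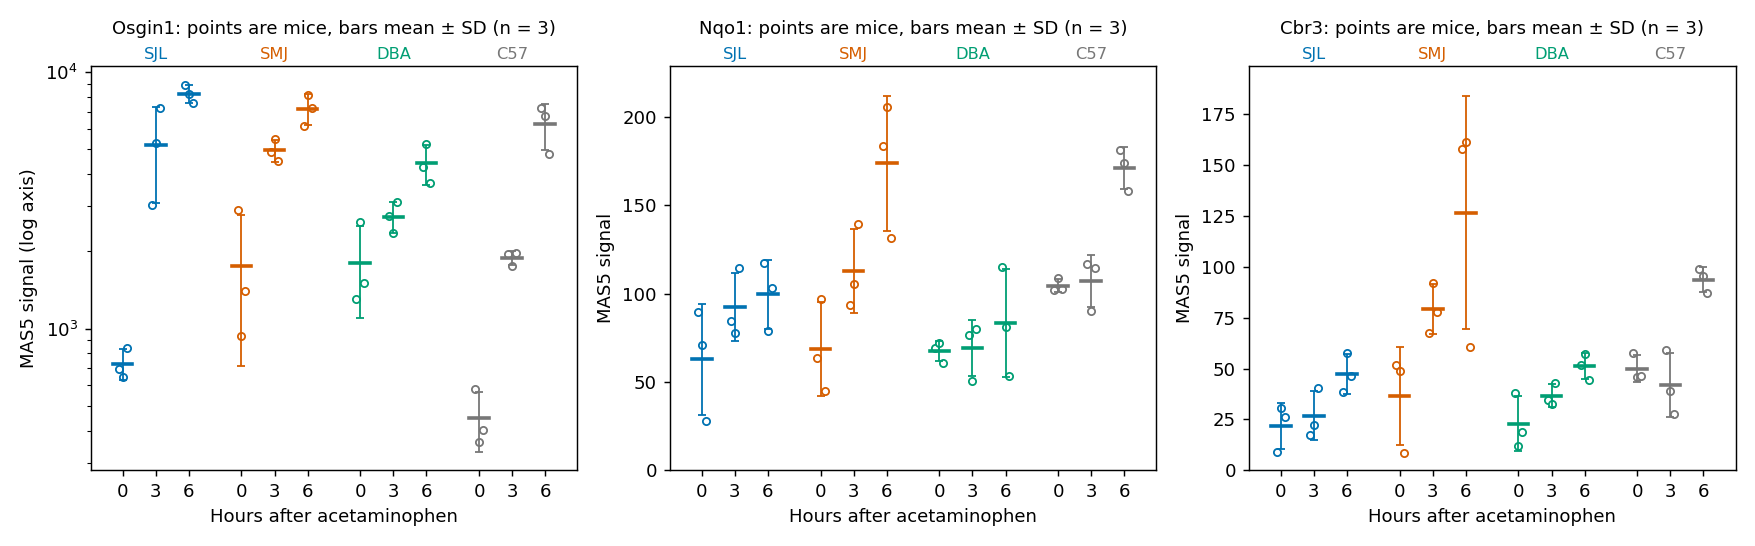
MAS5 signals of Osgin1 (log axis), Nqo1 and Cbr3 (linear axes) against hours after acetaminophen in the 4 strains; each point is a mouse and the bars show the mean and SD of 3 mice. Osgin1 is above its 0 h range in each strain at 6 h, and for Nqo1 the SMJ and C57 mice at 6 h, at 131.8 and above, lie over all their 0 h values.

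Among the reductases, Nqo1 had signals of 181.5, 173.9 and 158.4 in C57 livers at 6 h, against 102.2, 108.7 and 102.6 at 0 h, with 116.7, 90.5 and 114.5 at 3 h. In SMJ livers it had 183.6, 206.1 and 131.8 at 6 h, against 63.8, 97.2 and 44.8 at 0 h, and 93.5, 105.5 and 139.5 at 3 h. These were the 2 strains in which all 3 mice at 6 h lay above all 3 at 0 h, as was so in at least 2 strains for 12.4% of the genes tested. SJL livers had 117.2, 78.6 and 103.3 at 6 h, against 89.5, 71.1 and 27.9 at 0 h, and DBA livers had 114.9, 81.3 and 53.6 at 6 h, against 69.01, 71.99 and 60.97 at 0 h. In both of these strains the ranges overlapped. The change at 6 h passed within SMJ (2.55-fold, log2 1.35 ± 0.31, adjusted p = 0.00245), and the log2 differences in SJL (0.77), C57 (0.70) and DBA (0.23) did not pass. No difference between strains in the Nqo1 change was shown (F = 1.53, adjusted p = 0.441).

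Cbr3 signals were low, and several mice at 0 h lay under the median of all signals, 30.8. In SMJ livers Cbr3 had 157.9, 161.6 and 60.6 at 6 h, against 52.0, 49.0 and 8.60 at 0 h. In C57 livers it had 98.8, 95.5 and 87.0 at 6 h, against 57.6, 46.0 and 46.1 at 0 h. The third value in SMJ at either time, that of SMJ103 at 6 h and of SMJ58 at 0 h, stood well under the other two. SJL livers had 38.3, 57.8 and 46.2 at 6 h, against 8.78, 30.6 and 26.1 at 0 h, and DBA livers had 51.92, 57.03 and 44.58 at 6 h, against 37.9, 11.9 and 18.9 at 0 h. In each of the 4 strains the lowest mouse at 6 h was above the highest at 0 h, which held for 1.83% of the genes tested. Within strains only the SMJ change at 6 h passed (3.73-fold, log2 1.90 ± 0.47, adjusted p = 0.00474), and it was lost without mouse SMJ58 (1.16, adjusted p = 0.069). Without that mouse the DBA change passed (adjusted p = 0.0405). The log2 differences at 6 h in DBA (1.20), SJL (1.15) and C57 (0.88) did not pass. The mean of the strains at 3 h was 0.54 ± 0.24 (adjusted p = 0.201), with SMJ at 1.35 and C57 at -0.29.

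Cbr1, on chr16:93607837-93610349 and a neighbour of Cbr3, did not pass at either time. Its log2 difference over the 4 strains was 0.17 ± 0.13 at 3 h (adjusted p = 0.54) and 0.07 ± 0.13 at 6 h (95% confidence interval -0.19 to 0.34, adjusted p = 0.723), and it passed in no strain. The 6 h estimates ran from -0.38 in C57 to 0.47 in SMJ. Cbr1 differed instead between strains before the dose (F = 9.36, adjusted p = 0.00242). DBA livers had 784, 800.2 and 839.9 at 0 h, under every mouse of the other strains at that time. Those mice had 1001, 1316 and 997 (SJL), 2244, 1689 and 1391 (SMJ) and 2191, 1376 and 2038 (C57). The log2 difference of DBA from the mean of the other 3 strains was -0.91 ± 0.21 (adjusted p = 0.00562). C57 was higher than the mean of the others (0.66 ± 0.21, adjusted p = 0.0387). That call was lost without any 1 of 8 mice, among them C57180 (0.54, adjusted p = 0.206) and C57182 (0.59, adjusted p = 0.194), and otherwise SJL1, SJL4, SMJ57, SMJ58, DBA113 and DBA114 (adjusted p 0.0512 to 0.0685).

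Ephx1, on chr1:180989556-181017569, stayed within 3865 to 6475 over all 36 mice. Its log2 difference was 0.07 ± 0.06 at 3 h (adjusted p = 0.622) and 0.14 ± 0.06 at 6 h (95% confidence interval 0.01 to 0.27, adjusted p = 0.101), and no strain passed. Group means ran from 4359.8 ± 349 in SJL at 3 h to 6284 ± 247 in DBA at 3 h (SD, n = 3 each). Scaling each array by its 75th percentile in place of the trimmed mean brought the 6 h difference to 0.18 with an adjusted p of 0.0307, so the call on Ephx1 depends on the scaling.

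**Figure D3:**
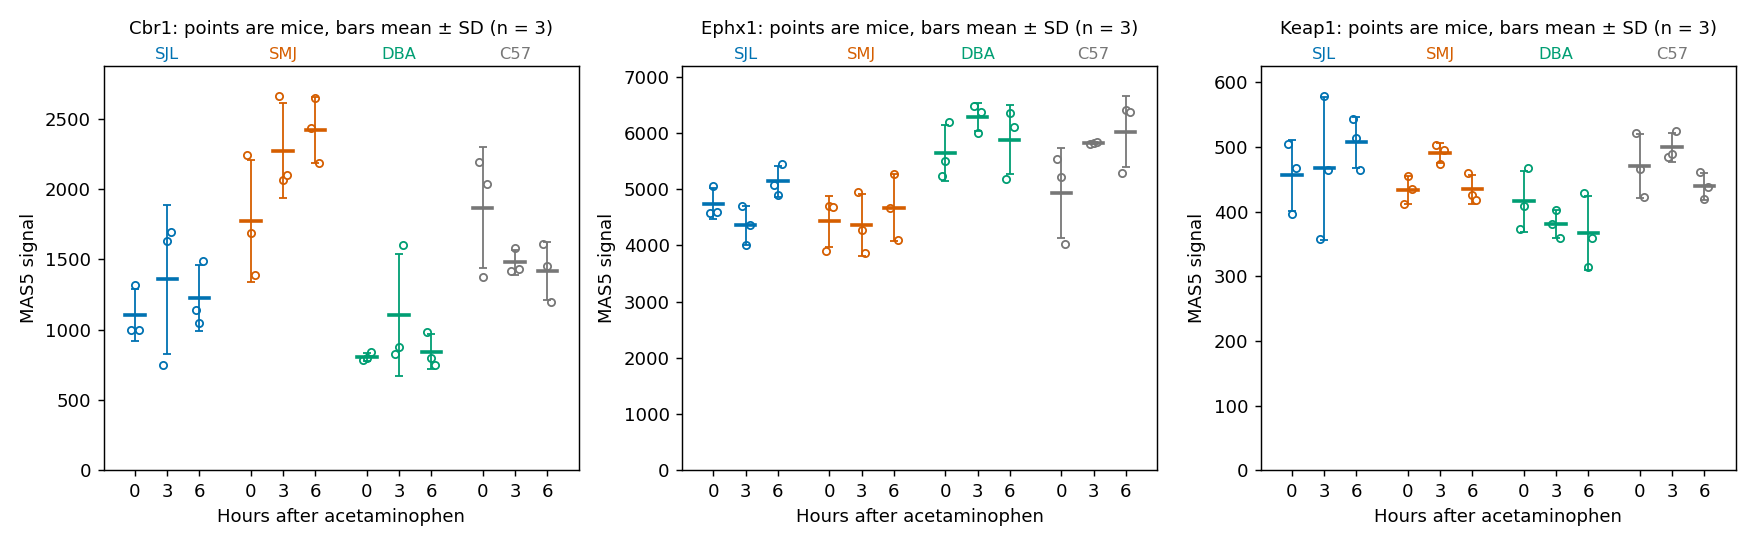
MAS5 signals of Cbr1, Ephx1 and Keap1 (linear axes from 0) against hours after acetaminophen in the 4 strains; each point is a mouse and the bars show the mean and SD of 3 mice. Cbr1 is lowest in DBA at 0 h, with all 3 mice between 784 and 839.9, and Keap1 stays between 315 and 578 in all 36 mice.

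Nfe2l2, the gene of NRF2 itself, changed in some strains and not in others. SJL livers had 469, 339.7 and 595 at 0 h, with 691, 727 and 881 at 3 h and 595, 740.4 and 771 at 6 h. SMJ livers had 984, 992 and 1111 at 0 h, with 895, 983 and 1075 at 3 h and 1974, 1748 and 1515 at 6 h. The rise came by 3 h in SJL, while in SMJ the 3 h mice overlapped those at 0 h and all 3 mice at 6 h stood above every other mouse of the series. DBA livers had 717, 646 and 671 at 0 h, with 551, 526 and 499 at 3 h and 556, 485 and 457 at 6 h. C57 livers had 533, 655 and 478 at 0 h, with 698, 606 and 622 at 3 h and 542, 572 and 557 at 6 h. With this brighter probe set each DBA mouse after the dose was below each DBA mouse before it. The share of all genes with such a fall is not given here. In C57 the groups at 3 h and 6 h overlapped that at 0 h.

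The Nfe2l2 change passed in SJL at 3 h (1.67-fold, log2 0.74 ± 0.15, adjusted p = 0.00234) and at 6 h (1.53-fold, 0.61 ± 0.15, adjusted p = 0.0131). The 6 h call was lost without mouse SJL2 (0.40, adjusted p = 0.125), SJL45 (0.57, 0.0596) or SJL48 (0.54, 0.0773). In SMJ it passed at 6 h (1.69-fold, 0.75 ± 0.15, adjusted p = 0.000828) and between 3 h and 6 h (0.82 ± 0.15, adjusted p = 0.000812, 1 of 7 genes against 11.9% of all genes in that contrast). In DBA the log2 difference was -0.44 ± 0.15 at 6 h and missed the threshold (adjusted p = 0.0588), and it passed without mouse SJL2 or SJL4, which are not DBA mice but share the estimate of spread (adjusted p 0.0283 and 0.035). In C57 the log2 difference at 6 h was 0.02 ± 0.15 (adjusted p = 0.963).

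The second, dimmer probe set of Nfe2l2 did not give the same picture. In SJL it read 97.4, 149.5 and 62.4 at 0 h, with 52.1, 76.2 and 55.5 at 3 h and 385, 246 and 204 at 6 h. In C57 it read 93.5, 82.7 and 223 at 0 h, with 111, 94.6 and 105 at 3 h and 153, 215 and 174 at 6 h. In DBA it read 64.9, 43.7 and 84.1 at 0 h, with 63.8, 67.4 and 117 at 3 h and 176, 163 and 91.5 at 6 h. The DBA mice at 6 h thus lay above those at 0 h, the reverse of the brighter probe set. The early rise in SJL seen with the brighter probe set is absent here, with a log2 difference at 3 h of -0.66 ± 0.41 (adjusted p = 0.37). Fitted with every probe set on its own, it was higher at 6 h over the 4 strains (1.30 ± 0.20, adjusted p = 1.67e-05), in SJL (1.44 ± 0.41, adjusted p = 0.0298) and in SMJ (2.06 ± 0.41, adjusted p = 0.000668). In DBA its difference was 1.12 ± 0.41 (adjusted p = 0.0767), of the opposite sign to that of the brighter probe set. Both probe sets thus passed at 6 h in SJL, in SMJ and over the 4 strains. Which part of the transcript each probe set reads is not used here.

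**Figure D4:**
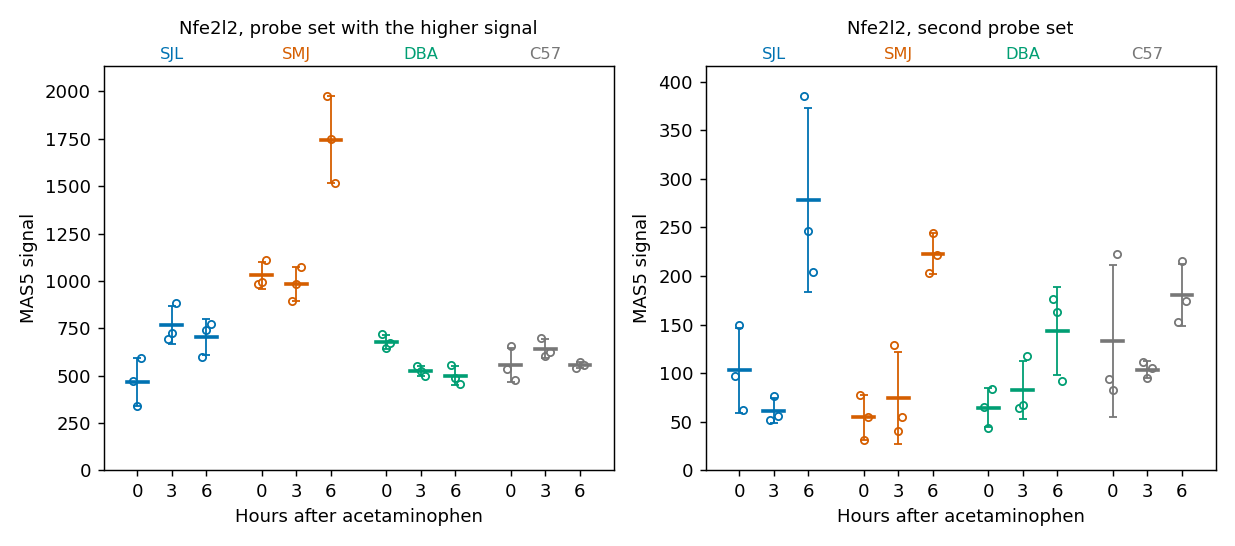
MAS5 signals of the 2 Nfe2l2 probe sets (linear axes from 0) against hours after acetaminophen; each point is a mouse and the bars show the mean and SD of 3 mice. At 6 h SMJ stands alone on the left, between 1515 and 1974, while on the right SJL, from 204 to 385, and SMJ, from 203 to 244, are both high.

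Keap1, on chr9:21229730-21239332, did not pass in any comparison with either probe set. The brighter one lay between 315 and 578 in all 36 mice and the other between 126 and 258. The log2 difference at 6 h over the 4 strains was -0.03 ± 0.07 (95% confidence interval -0.17 to 0.11, adjusted p = 0.79).

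Counted within strains, the genes that passed at 3 h were Osgin1 and Nfe2l2 in SJL (2 of 7, with 9.93% of all genes tested passing in either direction), Osgin1 in SMJ (1 of 7, 0.172%), none in DBA (0 of 7, 1.5%) and Osgin1 in C57 (1 of 7, 0.279%). In DBA 2 of the 7 had an unadjusted p under 0.05 by limma, Osgin1 and Nfe2l2, and with trended and robust moderation of the variance the count was also 0. At 6 h they were Osgin1 and Nfe2l2 in SJL (2 of 7, 7.02%), Osgin1, Nqo1, Cbr3 and Nfe2l2 in SMJ (4 of 7, 20.9%), Osgin1 in DBA (1 of 7, 12.4%) and Osgin1 in C57 (1 of 7, 10.0%). All these changes were upward. In fits restricted to the 6 arrays compared, the calls on Osgin1 in SJL, SMJ and C57 at 3 h and in DBA at 6 h, on Nfe2l2 in SJL at both times and on Nqo1 and Cbr3 in SMJ did not pass (adjusted p 0.0612 to 0.567), while those on Osgin1 at 6 h in the other strains and on Nfe2l2 in SMJ did.

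Before the dose, 3 of the 7 genes differed between strains by the F test, where 26.1% of all genes tested did: Nfe2l2 (F = 21.2, adjusted p = 1.63e-05), Osgin1 (F = 18.1, adjusted p = 4.86e-05) and Cbr1. Nfe2l2 was lower in SJL than in the mean of the other 3 strains (log2 -0.67 ± 0.13, adjusted p = 0.000685) and higher in SMJ (0.89 ± 0.13, adjusted p = 2.67e-05). Both calls rest on the brighter probe set. Its partner gave the opposite signs (0.40 in SJL and -0.79 in SMJ) and did not pass (F = 3.67, adjusted p = 0.0829), and neither did the mean of both (F = 1.15, adjusted p = 0.528; -0.13 in SJL and 0.05 in SMJ). For SJL this was 1 gene of 7, with 12.1% of all genes passing. Osgin1 was lower in C57 (-1.504 ± 0.25, adjusted p = 0.0002), and higher in DBA (1.12 ± 0.25, adjusted p = 0.00443) and SMJ (0.93 ± 0.25, adjusted p = 0.0188). Of the 7 genes, 2 thus passed in SMJ, DBA and C57 each at 0 h, with 9.41%, 10.3% and 12.2% of all genes passing. The DBA call was lost without mouse DBA114 (0.82, adjusted p = 0.0764) and the SMJ call without mouse SMJ56 (0.48, adjusted p = 0.278), the mouse with 2909.7 before the dose. Osgin1 in SJL differed by -0.55 ± 0.25 (adjusted p = 0.177). Nqo1 (0.71 ± 0.25, adjusted p = 0.0685) and Cbr3 (1.04 ± 0.39, adjusted p = 0.0812) in C57 did not pass, but these results depend on the processing. Nqo1 passed with quantile normalization (adjusted p = 0.0443), with 75th percentile scaling (0.0495) and without SJL1 (0.0279) or SMJ57 (0.0361). Cbr3 passed without SMJ56 (adjusted p = 0.0423) or DBA113 (0.0469).

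The size of the change differed between strains for 2 of the 7 genes, Nfe2l2 (F = 10.7, adjusted p = 0.000897) and Osgin1 (F = 8.2, adjusted p = 0.00329), where 7.89% of all genes tested passed the same F test. For Nfe2l2 this held for the brighter probe set, and the second did not pass (F = 2.21, adjusted p = 0.274). Each strain's change was also set against the mean change of the other 3. At 3 h SJL stood above them for Nfe2l2 (0.81 ± 0.18, adjusted p = 0.00808) and Osgin1 (1.28 ± 0.36, adjusted p = 0.0373), 2 of 7 genes with 4.61% of all genes passing. The direction for Nfe2l2 turned with the second probe set (-0.82 ± 0.47, adjusted p = 0.38), and with the mean of both it was -0.01 (adjusted p = 0.993). At 6 h neither passed for SJL, with 0.50 ± 0.18 for Nfe2l2 (adjusted p = 0.209) and 1.06 ± 0.36 for Osgin1 (adjusted p = 0.194). That made 0 of 7 genes by limma, with 0.393% of all genes passing, though both had an unadjusted p under 0.05.

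At 6 h the change in DBA was below that of the other strains for Osgin1 (-1.83 ± 0.36, adjusted p = 0.0118) and Nfe2l2 (-0.90 ± 0.18, adjusted p = 0.0118), 2 of 7 genes with 0.672% of all genes passing. The Nfe2l2 call was lost with the second probe set (-0.24 ± 0.47, adjusted p = 0.934) and with the mean of both (-0.57, adjusted p = 0.352). The change in C57 was above the others for Osgin1 (1.46 ± 0.36, adjusted p = 0.0191) and that in SMJ for Nfe2l2 (0.69 ± 0.18, adjusted p = 0.0362), 1 of 7 genes each, with 4.66% and 2.2% of all genes passing. Each strain's change is also a difference from its own 0 h level, and the strains with the higher Osgin1 signals at 0 h, DBA and SMJ, had the smaller changes at 6 h. The part of the 0 h level in the changes was not tested. Without SMJ56 the SMJ difference at 0 h was 0.48 and did not pass (adjusted p = 0.278). Several of the calls on a strain's change were lost without 1 mouse. For Osgin1 in SJL at 3 h it was any 1 of 9 mice: SJL42 (1.00, adjusted p = 0.113), SJL1, SJL2, SJL4, SJL40, SMJ98, DBA159, C57180 and C57230 (adjusted p 0.0515 to 0.105). For Nfe2l2 in SMJ at 6 h it was SMJ101 (0.60, adjusted p = 0.149), SMJ56, SMJ57, SMJ58, SMJ102, SJL1, SJL44, DBA113 and DBA169 (adjusted p 0.0507 to 0.103). For DBA at 6 h the Osgin1 call was lost without DBA169 (-1.71, adjusted p = 0.0551) and the Nfe2l2 call without DBA113 (-0.86, adjusted p = 0.0646) or DBA169 (-0.84, adjusted p = 0.0551). For Osgin1 in C57 at 6 h it was C57181, C57182, C57233 and C57236 (1.32 to 1.39, adjusted p 0.055 to 0.0669). Without the filter on low signals the Osgin1 difference in SJL at 3 h (adjusted p = 0.0528) and the Nfe2l2 difference in SMJ at 6 h (adjusted p = 0.059) did not pass either. Without SMJ56 the Osgin1 change in DBA was also below the others at 3 h (-1.66, adjusted p = 0.00971, against -1.51 and no call with all mice). That difference passed as well without SJL39 (-1.63, adjusted p = 0.0193) and with quantile normalization (-1.61, adjusted p = 0.0489). The Nfe2l2 change in DBA at 3 h was below the others without SJL4 (-0.73, adjusted p = 0.039, against -0.66 and no call with all mice). The F tests for Osgin1 and Nfe2l2 passed without any 1 mouse.

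Ordered by mean signal over the 12 groups, Osgin1 ran from SJL, SMJ and C57 at 6 h through SJL and SMJ at 3 h, DBA at 6 h and 3 h and C57 at 3 h to DBA, SMJ, SJL and C57 at 0 h. Of the 11 pairs of neighbours in this order, 7 overlapped in range. The pairs that did not were DBA at 6 h and DBA at 3 h, DBA and C57 at 3 h, SMJ and SJL at 0 h, and SJL and C57 at 0 h. Nqo1 ran from SMJ (174 ± 38.1) and C57 (171 ± 11.8) at 6 h to SJL at 0 h (62.8 ± 31.6), and the only neighbours apart were C57 at 6 h and SMJ at 3 h. Cbr3 ran from SMJ at 6 h (127 ± 57.3) to SJL at 0 h (21.8 ± 11.5), with the gap between SMJ at 3 h and DBA at 6 h. With its brighter probe set Nfe2l2 ran from SMJ at 6 h (1746 ± 229) to SJL at 0 h (468 ± 127) (SD, n = 3 each), with 8 of 11 pairs overlapping. Its second probe set ran from SJL at 6 h (278 ± 94.7) to SMJ at 0 h (54.4 ± 23.3), with all 11 pairs overlapping. For Cbr1, Ephx1 and the brighter probe set of Keap1 all 11 pairs overlapped, and for the second of Keap1 10 did.

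The genes whose pattern was most like that of each member were found by Pearson correlation over the 12 group means of log2 signal, among all genes tested. The nearest to Osgin1 were Nfkbiz (0.929), Ets2 (0.928) and Ifitm1 (0.927), and to Nqo1 Map3k6 (0.950), Tomm20 (0.939) and Btbd10 (0.921). Map3k6 (0.928) and Tomm20 (0.941) were also among the 3 nearest to Cbr3, with Ncl (0.942). Nearest to the brighter probe set of Nfe2l2 was Slc5a3 (0.977), an inositol transporter, followed by Ube2f (0.925) and Tmem43 (0.922). For Cbr1 they were Krr1 (0.956), Mrpl57 (0.946) and Sh3glb1 (0.945), for Ephx1 Dbi (0.947), Wfdc2 (0.921) and Slc25a10 (0.919), and for Keap1 Pank2 (0.941), Acaca (0.903) and Apmap (0.891). The 12 points share strains, times and arrays, and with 13981 candidates per gene high values arise among many, so these are descriptions.

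Other genes of the pathway, from lists drawn up for this comparison, give the setting. The lists were chosen with earlier results of these data known, so their counts are descriptions. Of 26 tested NRF2 targets outside the members, 11 were higher and 0 lower at 3 h, and 19 were higher and 2 lower at 6 h (median log2 change 0.26 and 0.44, against -0.03 and -0.05 over all genes). Hmox1, which breaks down heme, was 13.1-fold higher at 3 h, or 16.0-fold without SMJ56, the mouse with high Hmox1 before the dose. Srxn1, which repairs oxidised peroxiredoxins, was 5.89-fold higher at 6 h, Gclc, the catalytic subunit of the rate-limiting enzyme of glutathione synthesis, 3.45-fold, Txnrd1, a thioredoxin reductase, 2.73-fold, and Sqstm1, the autophagy receptor p62, 2.11-fold. These genes were named for their small p values and stand at the top of the list. The log2 change of Nqo1 at 6 h, 0.76, lay above the list's median of 0.44. Without SMJ56 the counts were 11 and 0 at 3 h and 19 and 2 at 6 h. Among 16 tested partners and brakes of NRF2, 4 were higher and 0 lower at 3 h, and 5 were higher and 3 lower at 6 h (5 and 1 without SMJ56). Mafk, a small MAF protein that pairs with NRF2, was 2.95-fold higher at 6 h, and Bach1, which competes with NRF2 for the same elements, 2.64-fold. Maff, another small MAF protein, and Atf3, a stress-induced repressor and activator, also rose, but their 0 h means in some strains lay under the median of all signals, 30.8, so that the size of their fold depends on the offset. Maff had group means of 652 to 1986 at 6 h, against 25.0 to 99.2 at 0 h, and Atf3 had 2212 to 5567 at 6 h, against 22.9 to 397 at 0 h, the highest being that of SMJ with mouse SMJ56. With offsets of 1 and 32 the fold at 6 h was 28.0 and 16.0 for Maff and 73.3 and 40.7 for Atf3.

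In the pentose phosphate pathway, which the unmeasured G6pdx opens, 1 of 7 tested genes was higher at 3 h and 4 were higher and 1 lower at 6 h. Pgd, the next NADPH-yielding enzyme after that of G6pdx, was 2.26-fold higher at 6 h (adjusted p = 6.97e-09), and its group mean was 522 at 6 h against 199 at 0 h in SJL, 826 against 273 in SMJ, 314 against 184 in DBA and 566 against 286 in C57. Rpia (0.39), Tkt (0.31) and Taldo1 (0.29, on the log2 scale) rose less. Of 15 other carbonyl and quinone reductases, 0 were higher and 1 lower at 3 h, and 4 were higher and 6 lower at 6 h. The list did not move in 1 direction: Akr1b8, an aldose reductase relative, was 3.23-fold higher at 6 h, while Akr1c6 (log2 -1.52), Akr1c14 (-0.79) and Nqo2 (-0.56), the relative of Nqo1 that uses another cofactor, were lower. Of 3 other epoxide hydrolases tested, Lta4h was lower at 6 h (-0.20, adjusted p = 0.0387, or 0.0562 without SMJ56) and the others did not pass.

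Nqo1 and Ephx1 are also known as targets of other receptors, whose remaining targets are given for that reason. Of 5 tested targets of the aryl hydrocarbon receptor, Tiparp was higher at 3 h (3.25-fold) and 6 h (5.70-fold), Cyp1a1 was higher at 6 h (2.00-fold, log2 1.00 ± 0.27, adjusted p = 0.00521) and Cyp1a2 was lower at 6 h (log2 -1.25). Cyp1a1 signals were near the median of all signals, with means of 36.3 to 41.5 at 6 h in SJL, DBA and C57, against 16.8 to 31.7 at 0 h. In SMJ at 6 h mouse SMJ103 had 652.0 and the other two 50.04 and 65.68, and without SMJ103 the change was 1.64-fold (log2 0.72, adjusted p = 0.00106). Of 8 tested targets of CAR and PXR, 0 passed at 3 h by limma, where the smallest unadjusted p was 0.168 (Sult1d1). At 6 h Cyp3a11 was higher (0.30), and Sult1d1 (-0.64) and Cyp2b9 (-0.75) were lower, the last with an adjusted p of 0.0468, or 0.055 without SMJ56.

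Whole liver holds several cell types, and in such samples fewer cells of a type and less RNA per cell cannot be told apart. Of 10 tested markers of hepatocytes 8 were higher at 6 h and 0 lower over the 4 strains, and Alb, albumin, ranged from 10884 to 28847 over the 36 mice. Within strains 8 were higher in SMJ (median log2 change 0.68), 0 in SJL (0.08) and 1 in DBA (0.29). In C57 (0.38) 0 were higher and 1 was lower. Of 11 markers of pericentral hepatocytes, the cells in which acetaminophen is activated, 10 were lower at 6 h and 1 at 3 h, with 0 higher at either time. Their summed signal ranged from 6881 to 13882 in C57 at 6 h, against 26577 to 31513 at 0 h, from 26393 to 31465 in SJL at 6 h, against 33247 to 38080.0 at 0 h, and from 26208 to 29058 in DBA at 6 h, against 35054 to 39027 at 0 h. In SMJ the ranges overlapped, with 25085 to 30323 at 6 h, against 27695 to 29646 at 0 h. The sum leans on the brightest markers, such as Cyp2e1 (median signal 15957 over all mice). Counted by gene at 6 h, 8 of the 11 were lower and 1 higher in SMJ (median log2 change -1.49). Those lower were 4 in SJL (-0.82), 6 in DBA (-1.10) and 10 in C57 (-2.40), with 0 higher. Of 9 tested neutrophil markers 1 was higher at 3 h and 5 at 6 h. Their summed signal, over 10 genes, ranged from 1301 to 2250.1 in SMJ at 6 h, against 196 to 348 at 0 h, and from 1104 to 2440.3 in SJL at 3 h, against 433 to 980.2 at 0 h. In SJL at 6 h it overlapped the 0 h range (589 to 2618), as it did in DBA at 3 h (250.5 to 280.3, against 251.2 to 409.2). Counted by gene at 6 h, 4 of the 9 were higher in SMJ, 1 in C57 and 0 in SJL, with 0 lower. In DBA 1 was higher and 1 lower. Camp, one of them, stayed too low to be tested (1.31 to 42.4), S100a8 ranged from 14.6 to 1167, and none was at 0. Of 13 markers of Kupffer cells and macrophages 5 were higher at 6 h, as were 7 of 10 endothelial markers, and none of either was lower over the 4 strains (without SMJ56, 6 endothelial markers were higher and 1 lower). In SJL at 3 h, 5 of the 13 markers of Kupffer cells and macrophages were lower (median log2 change -0.54). So were 3 of 9 stellate cell markers, 3 of 8 periportal markers and 1 of 10 endothelial markers, and none of these lists had a marker that was higher. Osgin1 rose in SJL at that time, and Nfe2l2 did so with its brighter probe set alone. In SMJ and C57 at 3 h, where Osgin1 also passed, 0 markers of these lists were lower and 0 higher. Within strains at 6 h, 7 endothelial markers were higher and 0 lower in C57, and 2 higher and 0 lower in SMJ. In DBA 3 were higher and 1 lower, and in SJL 1 was higher and 1 lower. The part of these shifts in the results above was not tested.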

How the data were processed

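Total RNA from the livers of 36 mice was hybridised to 1-colour Affymetrix arrays, per the labels. Per the submitters' processing notes, the authors made the deposited intensity values with MAS5 (its version is not given in the sources used here). They were used as deposited, with no detection calls, and each array's mean with 2% trimmed at each end was the same. An offset of 2.77, the 10th percentile of all values, was added to the deposited signals before the log2 was taken. Of 45101 probe sets, 64 were controls, 34945 had 1 gene symbol, 932 several and 9160 none. A gene was represented by its single-symbol probe set with the highest mean log2 signal, passing over names that mark other possible targets unless there was no other. It was tested where at least 3 arrays exceeded the median of all values, 30.8. Group means of the 12 groups were fitted with R 4.3.3 and its package limma 3.58.1 to the 36 arrays together (24 residual degrees of freedom), with Benjamini-Hochberg adjustment over 13981 genes in each comparison. The contrasts were 3 h and 6 h minus 0 h and 6 h minus 3 h, for the mean of the strains and per strain, each strain against the mean of the other 3 at 0 h and in its change, and moderated F tests between strains. The fit was tested on simulated data. Alternatives were other offsets, scalings, probe set rules, moderation and filters, and leaving out each mouse. Promoters, gene positions and motif shares came from RefSeq tables of build GRCm38.p6, and no genome was used. The genes named are the members, up to 4 per pathway list with the smallest p in each of the comparisons at 3 h and 6 h, and the 3 most alike per member. The members and lists were chosen with earlier results of these data known, and some genes stand in more than 1 list. Replicates are separate mice, each with a number of its own, and the labels give no batch. The number of arrays limits the precision.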

Additional observations from a re-analysis of the deposited data

Results flagged for a closer look

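In 8 results a strain's change, or the changes of the strains among themselves, differed by limma's test of that difference. For Nfe2l2 the F test between strains gave 10.7. Its log2 change stood 0.809 above the mean of the other 3 strains in SJL at 3 h and 0.693 above it in SMJ at 6 h, and was 0.904 below it (difference -0.904) in DBA at 6 h. These Nfe2l2 values are those of the brighter probe set. With the second the F test gave 2.21 and the differences were -0.82, 1.02 and -0.24, and none passed. For Osgin1 the F test gave 8.2, and the change stood 1.281 above the mean of the other 3 strains in SJL at 3 h and 1.458 above it in C57 at 6 h, with a difference of -1.826 in DBA at 6 h. Groups of 3 mice were not searched for single outlying values.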

How the results depend on the processing

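No paired analysis was possible because each mouse has a number of its own and the groups share none. Under every alternative tried, and with each mouse left out in turn, Osgin1 rose at 3 h and 6 h over the 4 strains, and so did Nqo1, Cbr3 and Nfe2l2 at 6 h, so that the counts there were 1 and 4 of 7, or 5 at 6 h with scaling to the 75th percentile, which adds Ephx1. Leaving out 1 mouse, the counts of genes called ran from 1 to 3 between 3 h and 6 h, stayed at 2 in SJL at 3 h, ran from 1 to 2 in SJL at 6 h, 0 to 1 in SMJ at 3 h, 3 to 4 in SMJ at 6 h and 1 to 2 in DBA at 6 h, stayed at 0 in DBA at 3 h and at 1 in C57 at both times, and ran from 3 to 4 for strains at 0 h. They stayed at 1 for SJL at 0 h, 2 for the F test of change and 0 for SJL at 6 h, and ran from 1 to 2 for SJL at 3 h against the other strains. Nqo1 between 3 h and 6 h passed without mouse SJL4 or DBA169 (adjusted p 0.0308 and 0.0359), with an offset of 32 (adjusted p = 0.0365) and with only the arrays compared (adjusted p = 0.0436). Leaving out SMJ56 was given weight after its signals had been seen. With only the arrays compared, which leaves fewer residual degrees of freedom, the counts fell to 0 in SJL, SMJ and C57 at 3 h and in DBA at 6 h, to 1 in SJL at 6 h, to 2 in SMJ at 6 h (Nfe2l2 and Osgin1) and to 1 for the SJL change at 3 h (Nfe2l2). With trended and robust moderation DBA at 6 h had 2, and without the filter the SJL change at 3 h had 1. With the mean of a gene's probe sets, SJL at 3 h had 1 (Osgin1), SJL at 0 h 0 and the SJL change at 3 h 1. There the Nfe2l2 difference between 6 h and 3 h in SJL was 0.99 (adjusted p = 0.00693, against -0.13 for the brighter probe set alone), and its SJL change at 3 h against the others was -0.01, as the second probe set enters the mean. Also with that mean, the Nfe2l2 calls were lost for strains at 0 h (F = 1.15, adjusted p = 0.528), for SMJ at 0 h (0.05, adjusted p = 0.901) and for the DBA change at 6 h (-0.57, adjusted p = 0.352), and Nfe2l2 between 3 h and 6 h passed (0.72, adjusted p = 8.01e-06). Over all genes, counts that moved by more than 1.5 times included, with only the arrays compared, 6 against 1388 in SJL at 3 h, 289 against 982 in SJL at 6 h, 0 against 24 and 1041 against 2921 in SMJ, 94 against 210 and 498 against 1731 in DBA and 11 against 39 and 263 against 1402 in C57 (3 h, then 6 h). With each probe set fitted on its own, which tests more features, they were 1726 against 987 at 3 h, 7834 against 4567 at 6 h, 3531 against 2300 between them, 6196 against 3651 for strains at 0 h and 1657 against 1103 for the F test of change. The SMJ count at 3 h was 41 with an offset of 32 and 39 with trended moderation, and ran from 9 to 99 without 1 mouse; the count for the SJL change at 6 h, 55 as reported, was 24 with only the arrays compared, 17 without the filter and 99 with trended moderation, and ran from 1 to 117 without 1 mouse. No scaling moved the median of all genes by more than 0.1. The calls on Osgin1 at 0 h in SMJ and DBA, on Nfe2l2 between 3 h and 6 h in SMJ and on its change at 6 h in SMJ and DBA did not pass with only the arrays compared (adjusted p 0.0519 to 0.119), nor the SMJ change with quantile normalization (adjusted p = 0.0535) nor Cbr1 in C57 at 0 h without the filter (adjusted p = 0.054). No detection calls were given, so how far the dim Cbr3 signals at 0 h lay above background is not known here.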
